A study of Mus musculus with 19 samples.

Results

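Wide accessible peaks are stretches of open chromatin of at least 1000 bp in a mouse skin squamous cell carcinoma, and they were chosen here by their width and 3 further conditions. They had to lie on an autosome, to overlap no Smad2/3 site of the same study, and to stand outside any run of 4 or more peaks with gaps of 5 kb or less. Of 61553 peaks in the merged ATAC list, 59603 were autosomal, and 2368 of these reached 1000 bp. A Smad2/3 site removed 255 of them and a run removed 196 more, which left 1917 wide peaks, or 3.22% of the autosomal peaks. They were set beside 48882 narrower peaks that met every condition except the width.

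The study measured open chromatin by ATAC-seq, in which the Tn5 transposase cuts DNA that is not packed away, and RNA by sequencing. C57BL/6 tumours grew in skin as allografts of 10000 injected cells, and their cells were separated by flow sorting on CD71, a transferrin receptor, and on a retained histone H2B-GFP label that fades as cells divide. Quiescent cells were CD71lo H2BGFPhi, double negative cells were CD71lo H2BGFPlo, and proliferative cells were CD71hi H2BGFPlo. The RNA data held 1 library per population in each of 2 tumours, SCC1 and SCC2. The ATAC data added CD71hi H2BGFPhi cells, and the labels tie the merged list to the 8 ATAC libraries of these 4 populations. They do not tie it to 2 further ATAC libraries from a Tgfbr2KO tumour, SCC3. The Smad2/3 sites came from cultured SCC1 cells given 5 ng/mL TGFβ1 for 1 h. The driver of the H2BGFP transgene and the age of the host mice were not given in the sources used here.

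Nucleosomes are depleted at active promoters, so the ATAC peak at a promoter covers the start of transcription and some flanking DNA. Many promoters in mammals lie in CpG islands, stretches rich in cytosine followed by guanine that mostly escape DNA methylation. Such islands are typical of genes used in most cells and of the cell cycle, whereas genes of 1 cell type often have CpG-poor promoters. Wide accessible regions can also come from enhancers, or from pairs of genes whose starts lie back to back.

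The promoters of 3 of the widest peaks are shown because they give the letters behind the composition and motif counts. Sequences are from RefSeq on GRCm38.p6, the assembly that mm10 names, and run 5′ to 3′ on the gene's strand from 250 bases before the start to 50 after it. Capitals mark 3 motifs on either strand. The GC box reads GGGCGG and its reverse complement. The CCAAT box is named by its letters. The cell cycle homology region, or CHR, reads TTTGAA. Ube2d3 encodes a ubiquitin-conjugating enzyme, at chr3:135438230-135438529 on the plus strand. Tdrd3 encodes a Tudor domain protein that reads methylarginine, at chr14:87416333-87416632 on the plus strand. Sp4 encodes a zinc finger factor of the family that binds GC boxes, at chr12:118301391-118301690 on the minus strand.
Ube2d3: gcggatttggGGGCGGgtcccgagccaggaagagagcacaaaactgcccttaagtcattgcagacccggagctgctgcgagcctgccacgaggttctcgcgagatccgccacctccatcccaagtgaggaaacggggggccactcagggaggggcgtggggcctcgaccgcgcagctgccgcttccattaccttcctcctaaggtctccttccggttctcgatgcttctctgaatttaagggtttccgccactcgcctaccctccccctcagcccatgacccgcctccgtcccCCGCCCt
Tdrd3: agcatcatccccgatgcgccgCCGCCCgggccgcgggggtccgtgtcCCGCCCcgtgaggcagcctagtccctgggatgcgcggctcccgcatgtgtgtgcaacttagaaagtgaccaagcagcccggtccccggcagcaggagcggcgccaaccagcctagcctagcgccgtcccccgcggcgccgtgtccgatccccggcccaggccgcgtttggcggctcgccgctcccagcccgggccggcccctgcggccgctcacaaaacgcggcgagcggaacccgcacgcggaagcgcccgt
Sp4: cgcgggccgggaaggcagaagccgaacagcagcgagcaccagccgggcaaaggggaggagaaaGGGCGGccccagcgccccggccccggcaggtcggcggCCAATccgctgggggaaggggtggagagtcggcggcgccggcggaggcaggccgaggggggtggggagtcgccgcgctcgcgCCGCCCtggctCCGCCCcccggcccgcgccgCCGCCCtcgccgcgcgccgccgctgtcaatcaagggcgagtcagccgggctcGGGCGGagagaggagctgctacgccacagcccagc
The GC content of these windows was 64.0% at Ube2d3, 75% at Tdrd3 and 78.7% at Sp4. GC boxes numbered 2 at Ube2d3, 2 at Tdrd3 and 5 at Sp4, and none of the 3 windows held TATAAA. A match of letters is a description and does not show that a factor binds there.

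A further 4 promoters are shown because their genes were among those with the lowest and highest RNA ratios between quiescent and proliferative cells. Cep55, needed for the last cut between daughter cells, lies at chr19:38054734-38055033 on the plus strand. Mastl, the Greatwall kinase of mitotic entry, lies at chr2:23155975-23156274 on the minus strand. Both had lower RNA in quiescent than in proliferative cells. H2aw, a histone H2A gene that the RNA table lists as Hist3h2a, lies at chr11:58954435-58954734 on the plus strand. Arl4a, a small GTPase of the ARF family, lies at chr12:40037938-40038237 on the minus strand. Both had higher RNA in quiescent cells.
Cep55: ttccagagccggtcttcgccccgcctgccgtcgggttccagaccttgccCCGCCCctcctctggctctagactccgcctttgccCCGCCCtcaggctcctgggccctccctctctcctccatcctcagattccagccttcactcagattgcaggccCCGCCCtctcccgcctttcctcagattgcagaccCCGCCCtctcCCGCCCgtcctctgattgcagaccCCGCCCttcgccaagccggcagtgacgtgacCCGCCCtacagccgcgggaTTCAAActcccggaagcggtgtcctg
Mastl: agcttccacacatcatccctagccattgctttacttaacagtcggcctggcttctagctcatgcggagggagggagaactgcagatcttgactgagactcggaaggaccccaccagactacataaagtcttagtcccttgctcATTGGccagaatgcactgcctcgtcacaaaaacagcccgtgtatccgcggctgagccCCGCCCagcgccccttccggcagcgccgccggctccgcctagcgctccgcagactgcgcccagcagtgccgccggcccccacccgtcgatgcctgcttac
H2aw: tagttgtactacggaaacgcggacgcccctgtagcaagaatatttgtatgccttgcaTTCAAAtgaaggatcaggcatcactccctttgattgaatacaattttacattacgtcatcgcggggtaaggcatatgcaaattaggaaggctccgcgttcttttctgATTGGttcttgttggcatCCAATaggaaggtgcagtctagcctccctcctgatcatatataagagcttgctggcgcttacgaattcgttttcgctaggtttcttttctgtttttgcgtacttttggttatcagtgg
Arl4a: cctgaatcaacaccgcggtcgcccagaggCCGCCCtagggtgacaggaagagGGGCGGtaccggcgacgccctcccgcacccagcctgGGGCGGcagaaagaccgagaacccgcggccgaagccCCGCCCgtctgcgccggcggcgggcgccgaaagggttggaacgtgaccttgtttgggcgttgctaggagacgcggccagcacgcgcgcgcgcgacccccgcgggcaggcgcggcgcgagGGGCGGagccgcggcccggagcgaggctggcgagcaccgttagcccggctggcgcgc
The Cep55 window held 7 GC boxes and 1 CHR, and the Mastl window held 1 GC box and 1 CCAAT box. The H2aw window had no GC box, 2 CCAAT boxes and, like Cep55, 1 CHR. Its GC content of 43.7% was the lowest of the 7 windows printed. Arl4a had 5 GC boxes and a GC content of 76.0%.

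The wide peaks clustered close to the threshold that selected them. Their median width was 1100 bp, with quartiles of 1000 and 1200 bp, against a median of 550 bp for the narrower peaks. Widths in the list step by 50 bp apart from 1 peak, so 515 members stood exactly at 1000 bp and 674 narrower peaks stood 1 step below it at 950 bp. Only 41 members reached 1500 bp. Together the wide peaks covered 2142 kb, against 26980 kb covered by the narrower peaks. The list gives neither a score nor a library for any peak, so the depth behind a width is unknown, and wide peaks could not be compared between populations. A merged list can join peaks that were apart in single libraries, and how far this widened the members was not tested.

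The 5 peaks just inside and the 5 just outside the limit are named as a description. Ordered along the genome, the first members at 1000 bp included a peak at the start of Rb1cc1, an autophagy gene, at chr1:6214251-6215250. The other 4 held no gene start, and their nearest starts were those of 1700034P13Rik, Cops5, Gm32651 and Gm29506. The first narrower peaks at 950 bp included those at the starts of Tcea1, a transcription elongation factor, and Lmbrd1, a lysosomal membrane protein. The other 3 lay beside Pcmtd1, Ncoa2 and Eya1.

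Of the 20 widest members, 12 held a gene start. The 2 widest, both 1950 bp, lay at chr1:16104101-16106050 and at chr4:66827201-66829150. The first held the starts of Rdh10, a retinol dehydrogenase, and Rpl7, a ribosomal protein. The second held the start of Tlr4, the receptor for bacterial lipopolysaccharide. A peak of 1850 bp covered Ube2d3 and 4930539J05Rik. Peaks of 1700 bp covered Tdrd3, the splicing factor U2af2, and Gt(ROSA)26Sor, the Rosa26 locus known for its ubiquitous activity. Sp4, the phosphodiesterase Gpcpd1, and the pair 4930526I15Rik and LOC108167694 stood at 1650 bp. Bhlhe40, a circadian and stress-responsive repressor, and Zfp1 stood at 1600 bp, and the ubiquitin ligase Rnf44 at 1550 bp. The remaining 8 held no start, and among them was a 1650 bp peak 32249 bp from the start of Fgfbp1. Bhlhe40 was the one of the 20 within 10 kb of a Smad2/3 site, at 4882 bp.

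A group of 3 neighbouring members lay at and beside a copy of the 18S ribosomal RNA sequence. They spanned chr17:39843001-39844900, chr17:39845001-39846600 and chr17:39847401-39848900, with widths of 1900, 1600 and 1500 bp, and the copy is the pseudogene Rn18s-rs5 at chr17:39846354-39848202. Reads from the many ribosomal DNA copies can map there, and whether the widths come from reads of other copies was not tested. The number of members without this locus was 1914.

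Gene starts were much more common in wide peaks than in narrower ones. Length alone can bring more starts into a peak, and its part was not tested. A start was taken from the RefSeq promoter table with its strand, or, for genes absent from it, as either end of the gene. A start of a protein-coding or lncRNA gene lay inside 1103 of the 1917 wide peaks, 57.5% with an exact 95% binomial interval of 55.3 to 59.8%, against 7887 of 48882 narrower peaks, 16.1% with an interval of 15.8 to 16.5%. These intervals, and all others given here, cover counting only and take peaks as independent, which neighbouring peaks are not. Protein-coding starts lay in 55.0% of wide peaks, against 14.9% of narrower peaks. For lncRNA starts the share was 9.75% of wide peaks, against 2.47% of narrower peaks. Peaks of 1000 bp or more that had been set aside held fewer starts, with 29.4% (interval 23.9 to 35.4%) of the 255 with a Smad2/3 site and 40.3% (33.4 to 47.5%) of the 196 in runs.

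The share with a start climbed gradually with width and did not jump at 1000 bp. It was 5.27% of 6466 peaks of 300 to 350 bp, 19.5% of 9706 peaks of 600 to 650 bp and 51.3% of 1640 peaks of 900 to 950 bp. Among wide peaks it was 56.6% at 1000 to 1050 bp and 64.8% at 1300 to 1450 bp. For the 41 members of 1500 bp or more it was 61.0%, with an interval of 44.5 to 75.8%. Neighbouring classes above 1000 bp had overlapping intervals.

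**Figure D1:**
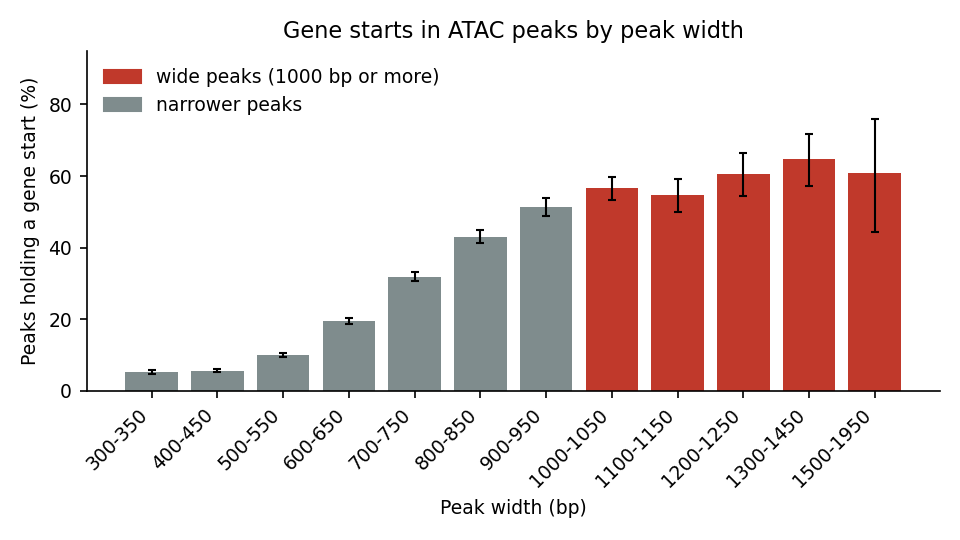
Share of autosomal ATAC peaks that hold a gene start (%, vertical axis) by peak width (bp, horizontal axis), with wide peaks in red and narrower peaks in grey, and exact 95% binomial intervals as error bars. The share is 5.27% at 300 to 350 bp, 51.3% at 900 to 950 bp and 56.6% at 1000 to 1050 bp, with no step at the threshold.

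Peaks shared by 2 or more genes were also more common in the wide class. A longer peak can hold more starts by its length alone, and the part of length was not tested. The first counts include starts on the same strand and either end of genes without a strand. Starts of 2 or more genes lay in 292 wide peaks, 26.5% of those with a start (interval 23.9 to 29.2%), against 1258 narrower peaks, 16.0% of those with a start (15.1 to 16.8%). Counting only protein-coding genes of known strand, starts on both strands lay in 120 of 877 wide peaks (13.7%), against 460 of 6002 narrower peaks (7.66%). Starts of 3 genes lay in 5 wide peaks. Among these were a 1050 bp peak shared by Paics and Ppat, enzymes of purine synthesis, and LOC115486295 at chr5:76950901-76951950, and a 1000 bp peak shared by Shld3, Trappc13 and Trim23 at chr13:104178151-104179150. Wide peaks with 2 or more genes were no wider at the median, at 1050 bp, than wide peaks with any start, at 1100 bp.

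Around the start, wide peaks reached farther on both sides. For 999 protein-coding genes of known strand, the wide peak ran a median of 588 bp upstream of the start (quartiles 388 and 796 bp) and 515 bp downstream (293 and 701 bp). For 6479 genes with a narrower peak, the medians were 365 bp upstream and 285 bp downstream. A longer reach follows from the width rule, and the part of width in the balance of the 2 sides was not tested. Of the genes, 46.3% with a wide peak (interval 43.2 to 49.5%) had the longer arm downstream, against 32.1% (31.0 to 33.3%) of genes with a narrower peak.

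**Figure D2:**
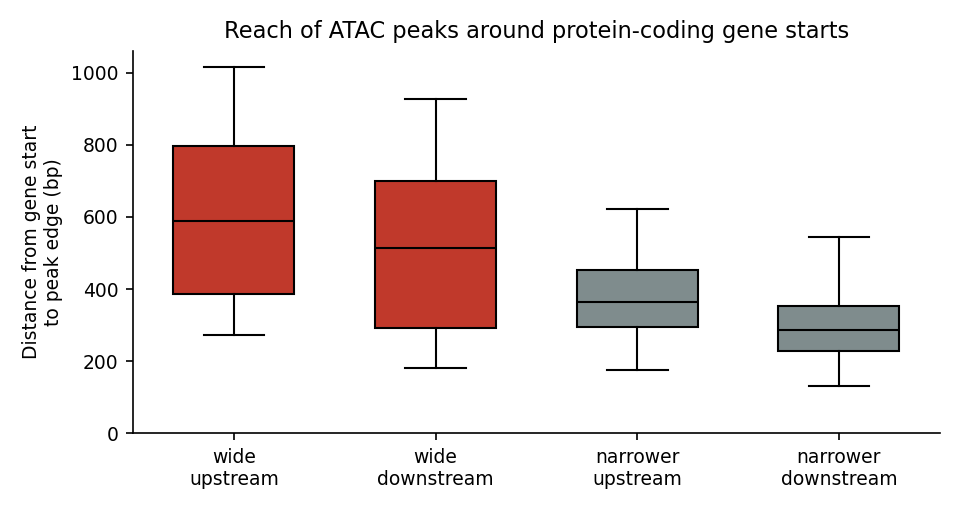
Distance in bp from a protein-coding gene start to the upstream and downstream edge of its peak, for wide peaks (red, 999 genes) and narrower peaks (grey, 6479 genes). Boxes give quartiles and medians, and whiskers the 5th and 95th percentiles. Medians are 588 and 515 bp for wide peaks, and 365 and 285 bp for narrower peaks.

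The other 814 wide peaks held no gene start. Of these, 449 (55.2%, interval 51.7 to 58.6%) touched a gene interval, close to the 57.6% of 40995 narrower peaks without a start. Their median distance to the nearest start was 21.3 kb, against 19.3 kb for narrower peaks, and the quartiles were wide, at 7.14 and 47.5 kb against 6.63 and 49.6 kb. A start lay within 10 kb of 32.2% of these wide peaks and of 33.0% of the narrower ones. Within 1 kb the shares were 8.23% (6.44 to 10.3%) of wide peaks and 5.73% (5.51 to 5.96%) of narrower peaks, and within 100 kb they were 90.8% (88.6 to 92.7%) of wide peaks and 88.0% (87.7 to 88.3%) of narrower peaks. Their median width was 1050 bp, against 1100 bp for wide peaks with a start.

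Promoters inside wide peaks were rich in CpG. Over 1162 RefSeq promoter windows of 300 bases from protein-coding genes, the median ratio of observed to expected CpG was 0.84 (quartiles 0.71 and 0.95). It was 0.80 over 7213 windows in narrower peaks and 0.28 over 10781 windows in no peak. A ratio over 0.6, a usual mark of CpG islands, was reached by 88.7% of windows in wide peaks (interval 86.8 to 90.5%), against 79.2% (78.3 to 80.2%) in narrower peaks, 22.6% in no peak and 48.9% of all 20084 windows. Median GC content was 64.3% in wide peaks, 62.0% in narrower peaks and 51.3% in no peak. The larger contrast was between having and lacking a peak, and width added a smaller one.

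**Figure D3:**
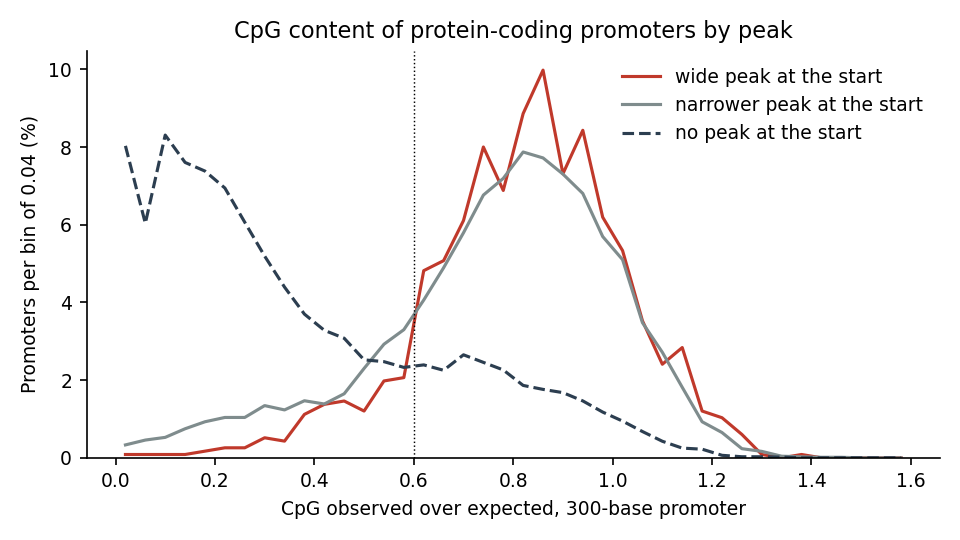
Distribution of the CpG observed over expected ratio (horizontal axis, no unit) over 300-base promoter windows of protein-coding genes, as the percent of windows per bin of 0.04 (vertical axis), for starts in a wide peak (red), in a narrower peak (grey) and in no peak (dashed). The dotted line marks 0.6, which 88.7%, 79.2% and 22.6% of windows exceed in that order.

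GC-rich motifs were common in these windows and TATAAA was rare. The GC box GGGCGG, bound by Sp family factors, was found on either strand in 75.7% of windows in wide peaks (interval 73.2 to 78.2%), against 68.6% (67.5 to 69.7%) in narrower peaks and 47.0% of all windows. TATAAA, the TATA box, was found in 4.65% of windows in wide peaks, 6.09% in narrower peaks and 12.7% of all windows. The ETS letters CCGGAAG went the other way within peaks, at 18.1% (15.9 to 20.4%) in wide peaks against 22.0% (21.0 to 22.9%) in narrower ones, with 11.9% of all windows. The letters CCAAT stood at 38.0%, 41.6% and 38.1% in wide peaks, in narrower peaks and in all windows. In the same order of wide, narrower and all, the E2F letters TTCCCGC had shares of 9.90%, 9.23% and 6.05%, and for the CHR TTTGAA 9.21%, 11.2% and 15.4%. The NRF1 letters GCATGCGC gave 6.71%, 6.27% and 3.55%, and the CRE TGACGTCA gave 3.79%, 3.85% and 2.30%. For YY1, AAGATGGCG, the shares were 3.87%, 3.47% and 1.83%, and for AP-1, TGANTCA, 4.04%, 5.28% and 7.06%. Intervals of wide and narrower peaks overlapped for all of these except the GC box and the ETS letters. All were searched on both strands, and TTCCCGC can overlap a GC box read on the other strand.

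Most microRNA genes lay in no peak, as did the midpoints of 866 of 919 autosomal RefSeq hairpins. The 1917 wide peaks held 10 midpoints and the 48882 narrower peaks held 33. For the number of peaks, hairpins were thus more frequent in the wide class, whose peaks are longer by rule. Those in wide peaks included Mir2861 in the peak of Cdk9, the kinase that releases paused RNA polymerase II, and Mir762 in the peak of Bcl7c. Mir3081 lay in the peak of Boc, a Hedgehog co-receptor.

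RNA differences were read from the authors' deposited table of 1609 genes, titled as a table of differential expression, with 1 log ratio for every pair of populations in each tumour and no levels, counts or depth. Its log base is not stated in the table and is taken here as log2, as Cuffdiff writes it. How genes were selected for it is unknown here, so its genes may have been picked for differing. The table held 9.56% of protein-coding genes with a wide peak at their start and 10.8% of those with a narrower one, against 3.49% of those with no peak. Of the table's genes, 116 had a wide peak at their start, from 113 peaks. Among genes named below for their ratios, Kif20a, Cebpd, Izumo4, Clu and Pimreg had no strand. Their wide peak lay at an end of the gene that may not be its start. Each sign is a direction in 1 library per population and tumour, so no ratio has a replicate within a tumour and none was tested.

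Among the wide-peak genes that the table lists, lower RNA in quiescent than in proliferative cells was the more frequent direction. Of these 116, 75 (64.7%, interval 55.2 to 73.3%) were lower in both tumours, against 52.3% of all genes in the table. Among 855 genes with a narrower peak the share was 62.5% (59.1 to 65.7%), within the interval of the wide class. In bulk sorted cells, fewer cells with a transcript and less of it per cell cannot be told apart. In both tumours 38 genes (32.8%) were higher, against 35.8% of the table and 29.9% of genes with a narrower peak. The remaining 3 had opposite signs. Genes in the table with no peak at their start were lower less often, at 30.7% of 414. Wide-peak genes had a median log2 ratio of -0.63 for SCC1 and -0.91 for SCC2 in the authors' deposited table, against -0.61 and -0.49 for the whole table.

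Markers of other cell types moved in the same comparison, mainly in SCC2. Of 16 fibroblast markers 9 were in the table, and 5 of them had positive ratios in both tumours. Their ratios in the authors' deposited table ran from -0.997 to 2.75 for SCC1, with a median of 0.05, and from 2.54 to 5.38 for SCC2, with a median of 4.42. The collagen gene Col1a1, for example, had 0.054 for SCC1 and 4.60 for SCC2 in the authors' deposited table. Of 19 immune markers 5 were in the table, with medians of -0.13 for SCC1 and 2.87 for SCC2 in the authors' deposited table, and 2 were higher in both tumours. Of 14 endothelial markers 2 were in the table, and 0 had the same sign in both tumours. None of the melanocyte and nerve markers was in the table. Levels are not given, and the part of other cell types in the ratios of wide-peak genes was not tested.

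By width, the share of lower genes went up and then came back. It was 46.7% of 214 genes with a peak of 300 to 550 bp, 69.9% of 186 at 700 to 750 bp, 71.2% of 260 at 800 to 950 bp and 64.7% of the 116 with a wide peak. The interval of the wide class, 55.2 to 73.3%, overlapped that of the 800 to 950 bp class, 65.2 to 76.6%.

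The 10 lowest ratios were picked by value, and the roles of these genes are background. Kif20a, a kinesin of cytokinesis, stood at -4.13 for SCC1 and -3.66 for SCC2 in the authors' deposited table, with a 1300 bp peak that it shared with Brd8. Cep55 had -5.10 for SCC1 and -2.91 for SCC2 in the authors' deposited table, over a 1050 bp peak. For Mastl the authors' deposited table gave -3.39 for SCC1 and -2.34 for SCC2. All 3 act in mitosis or cytokinesis. Gas2l3, which links actin and microtubules, had -3.67 for SCC1 and -2.22 for SCC2 in the authors' deposited table. Plk4, the kinase of centriole duplication, had -3.17 for SCC1 and -2.07 for SCC2 in the authors' deposited table. In the authors' deposited table, Ddias, an anti-apoptotic gene of the DNA damage response listed there as 4632434I11Rik, stood at -4.25 in SCC1 and -2.14 in SCC2, with a 1450 bp peak shared with Prcp. The other 4 of the 10 lowest were Brca1, Bard1, E2f8 and Rrm2. Brca1, of homologous recombination, had -3.88 for SCC1 and -1.95 for SCC2 in the authors' deposited table, with a 1300 bp peak it shared with Nbr1. Its partner Bard1 had -2.25 for SCC1 and -2.01 for SCC2 in the authors' deposited table. E2f8, an atypical E2F repressor, had -3.69 for SCC1 and -1.98 for SCC2 in the authors' deposited table. Rrm2 encodes a subunit of ribonucleotide reductase, and all 10 had the more negative ratio in SCC1.

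The higher genes had smaller ratios. Cebpd, a stress-responsive transcription factor, was highest, at 2.11 for SCC1 and 1.78 for SCC2 in the authors' deposited table, over a 1050 bp peak. Hist3h2a, the histone gene H2aw whose window lacked a GC box, had 1.42 for SCC1 and 1.41 for SCC2 in the authors' deposited table, over a 1050 bp peak it shared with Trim17. Arl4a had 1.74 for SCC1 and 1.36 for SCC2 in the authors' deposited table, over a 1300 bp peak. Of these 3, Hist3h2a was the most alike between tumours. Cish, a cytokine-induced inhibitor of signalling, had 1.24 for SCC1 and 1.65 for SCC2 in the authors' deposited table. Cdkn2b, the p15 inhibitor of cyclin D kinases and a known TGF-β target, had 0.91 for SCC1 and 0.92 for SCC2 in the authors' deposited table, over a 1050 bp peak. Gabarapl1, of autophagosome formation, had 1.13 for SCC1 and 0.98 for SCC2 in the authors' deposited table. The others were Izumo4, Vmac, Tsacc and S100a13, and their values in the authors' deposited table lay between 1.13 and 1.93. With a ratio of at least 1 in size in both tumours, 8 of the 116 genes were higher and 32 lower. This count was made for wide-peak genes only, so it has no share of the whole table beside it. At any size, 64.7% of wide-peak genes and 62.5% of genes with a narrower peak were lower in both tumours.

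**Figure D4:**
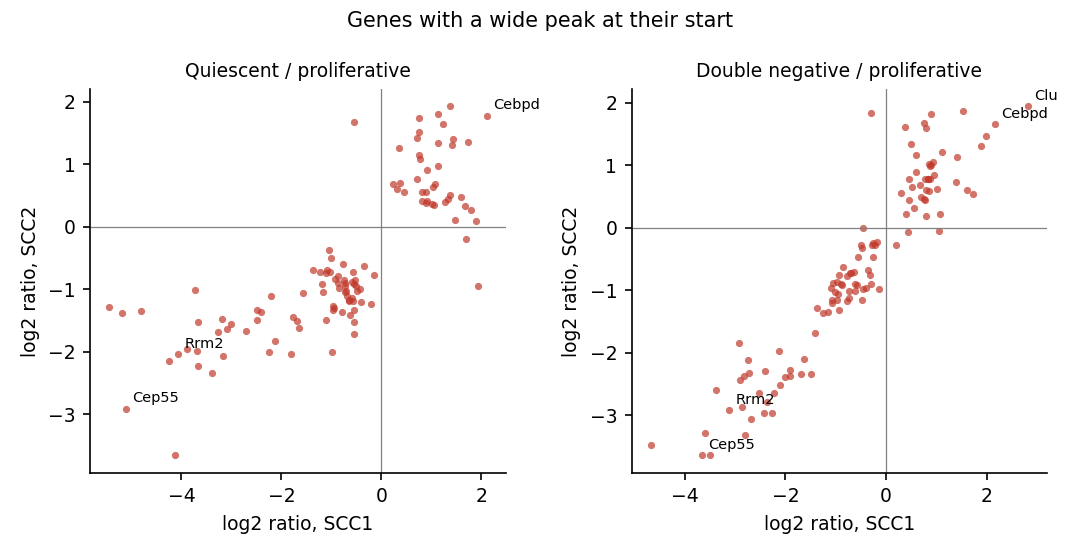
Log2 ratios of the 116 genes with a wide peak at their start in the authors' deposited table, SCC1 on the horizontal axis and SCC2 on the vertical axis, for quiescent over proliferative (left) and double negative over proliferative (right) cells. Each point is a gene. In the left panel 75 genes are below 0 and 38 above 0 in both tumours, and in the right panel 71 and 41.

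There were 3 wide peaks that each served 2 genes of the table, and each pair pointed the same way in both tumours. Hnrnpa1, a splicing regulator, had -1.66 for SCC1 and -1.62 for SCC2 in the authors' deposited table, and Cbx5, the heterochromatin protein HP1α across the same 1500 bp peak, had -0.73 and -0.94 there. Mcm4, of the replicative helicase, had -2.13 for SCC1 and -1.83 for SCC2 in the authors' deposited table, and its neighbour Prkdc, the DNA-PK catalytic subunit, had -0.62 and -1.40 there. The calcium-binding genes S100a13 and S100a1 were both higher, and S100a1 had 0.76 for SCC1 and 1.53 for SCC2 in the authors' deposited table. These are 3 pairs only, so no share was drawn from them.

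Double negative cells were set against the same proliferative libraries, so the values share their denominator with those above. Of the 116 genes, 71 (61.2%, interval 51.7 to 70.1%) were lower in the double negative cells of both tumours, against 50.9% of the table and 62.0% of genes with a narrower peak. Higher in both were 41 (35.3%), against 42.6% of the table and 33.1% of genes with a narrower peak. The processing notes name mm9 as well as mm10 for the double negative libraries, and the part of this in the ratios was not tested. Wide-peak genes had medians of -0.48 for SCC1 and -0.72 for SCC2 in the authors' deposited table, against -0.35 and -0.34 for the whole table.

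Markers of other cell types were mostly higher in double negative cells too. Of 9 fibroblast markers with a ratio, 8 were higher in both tumours, with medians of 2.75 for SCC1 and 1.45 for SCC2 in the authors' deposited table. Both endothelial markers were higher, and Cldn5, a claudin of endothelial junctions, had 6.84 for SCC1 and 4.53 for SCC2 in the authors' deposited table. Of the 5 immune markers 4 were higher in both tumours, with medians of 1.44 for SCC1 and 0.42 for SCC2 in the authors' deposited table. Their part in the ratios of wide-peak genes was not tested here either.

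The 5 lowest and 5 highest were again picked by value. Cep55 had -3.66 for SCC1 and -3.64 for SCC2 in the authors' deposited table. Sgo1, the shugoshin that guards centromere cohesion and is listed as Sgol1, had -4.67 for SCC1 and -3.48 for SCC2 in the authors' deposited table. Birc5, which encodes survivin, had -3.59 for SCC1 and -3.28 for SCC2 in the authors' deposited table. Pimreg, listed as Fam64a, and Rrm2 completed the 5 lowest. Each of the 5 had a peak of 1000 or 1050 bp, as did 948 of the 1917 wide peaks. Among higher genes Clu, the secreted chaperone clusterin, had 2.82 for SCC1 and 1.94 for SCC2 in the authors' deposited table. Cebpd had 2.15 for SCC1 and 1.66 for SCC2 in the authors' deposited table. Aox1, an aldehyde oxidase, had 1.53 for SCC1 and 1.87 for SCC2 in the authors' deposited table. Izumo4 and the receptor kinase Mertk completed the 5 highest.

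Wide peaks without a start were described through the gene with the nearest start. Of the 814, 56 had a nearest gene in the table, and these were 51 genes. In quiescent over proliferative cells 25 (49.0%, interval 34.8 to 63.4%) were higher in both tumours and 23 (45.1%) lower, against 37.8% (34.5 to 41.2%) higher and 50.9% lower for 846 nearest genes of narrower peaks. The 2 intervals of the higher share overlapped, and some nearest genes served peaks of both classes. Mki67, the proliferation marker, was nearest to a 1250 bp peak at chr7:135735451-135736700 and had -5.90 for SCC1 and -2.28 for SCC2 in the authors' deposited table. Among the higher nearest genes was Cst3, the secreted protease inhibitor cystatin C, nearest to a 1050 bp peak at chr2:148888451-148889500. Cst3 had 1.49 for SCC1 and 1.83 for SCC2 in the authors' deposited table, and some other nearest genes had higher ratios in both tumours. Both were picked for their values.

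Fixed gene lists were read by the peak at each gene's start, with 5.82% of 20661 protein-coding autosomal genes having a wide peak. Cell cycle control genes had the highest share of the lists, with 8 of 34 (23.5%, interval 10.7 to 41.2%). The 5.82% counts genes without any peak too. A peak of any width lay at the start of 85.3% of this list, against 47.7% of all protein-coding autosomal genes. The share therefore does not separate having a peak from having a wide one. The 8 genes with a wide peak are named next. They were E2f1, E2f3, E2f5 and E2f8, E2F transcription factors of the cell cycle, Pcna, the replication clamp, Rbl2, the pocket protein p130, and the inhibitors Cdkn2a and Cdkn2b. E2f1 had -0.59 for SCC1 and -1.13 for SCC2, quiescent over proliferative, in the authors' deposited table. For Pcna the authors' deposited table gave -1.23 for SCC1 and -0.72 for SCC2. Of the 8, then, E2f1, E2f8 and Pcna were lower in quiescent cells, Cdkn2b was higher, and the other 4 were not in the table. Whatever their peak, 14 of the 15 cell cycle control genes with a ratio were lower in both tumours, and 1 was higher. Cdkn2a and Cdkn2b are neighbours, with peaks at chr4:89294451-89295550 and chr4:89310351-89311400.

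DNA replication genes had 3 of 29 with a wide peak, among them Mcm4 and Rrm2, and quiescent cells had less RNA of both in SCC1 and in SCC2. Chromatin genes had 3 of 30, namely the Polycomb subunit Eed, the deacetylase Hdac2 and the methyltransferase Kmt2c, whose peak was 1500 bp. Housekeeping genes had 2 of 25, Polr2a and Ubb. All of these intervals included 5.82%.

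Epidermal transcription factors had 3 of 25 (12.0%, interval 2.55 to 31.2%), which were Sox9, a hair follicle stem cell factor, Klf4, a factor of the skin barrier, and Ets2. Of 30 epithelial and keratinocyte structural genes 0 had a wide peak and 14 had another peak. The upper bound for 0 of 30 is 11.6%, which includes 5.82%, and the lists were not tested against each other. Of TGF-β and BMP pathway genes 2 of 32 had one, Smad2 and the ligand Tgfb3, and Tgfb3 had 0.36 for SCC1 and 0.71 for SCC2 in the authors' deposited table. Of AP-1 and immediate early genes 2 of 29 had one, Cebpd and the mRNA decay factor Zfp36l2. A further 14 of these 29 had a peak that the rule set aside for a Smad2/3 site or a run, and such peaks could not be members. Homeobox and developmental regulators had 1 of 50, Irx3.

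The structural list was read for an epithelial label. A peak of any width lay at the start of 46.7% of its 30 genes, against 47.7% of all protein-coding autosomal genes. The list thus stood close to the share of all genes, and an epithelial origin of the peaks was not tested. Peaks set aside or narrower than the limit lay at the starts of Krt6a, Itga6, Dsp, Jup and 10 others. The other 16 genes had no peak, among them Krt5, Krt14, Krt8, Krt18, Cdh1 and Epcam. Markers of other cells in a tumour were counted against the same 5.82%. Of 16 fibroblast markers 0 had a wide peak, and Twist1 alone had any peak. Of 14 endothelial markers 0 had a peak of any width at their start. Of 19 immune markers 0 had a wide peak, but 11 (57.9%) had another peak, against the 47.7% of all genes with any peak. Among these 11 were Ptprc, Csf1r, Lyz2 and Adgre1, and their widths were 450 to 850 bp. Of 8 melanocyte and nerve markers 0 had a wide peak and 2 another peak. The upper bounds for these counts of 0 are 20.6% for fibroblast, 23.2% for endothelial, 17.6% for immune and 36.9% for melanocyte and nerve markers, all above 5.82%, so lists of this size do not show a lack of wide peaks. The part of immune cells in the wide peaks was not tested, and a merged list does not show which library a peak came from.

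**Figure D5:**
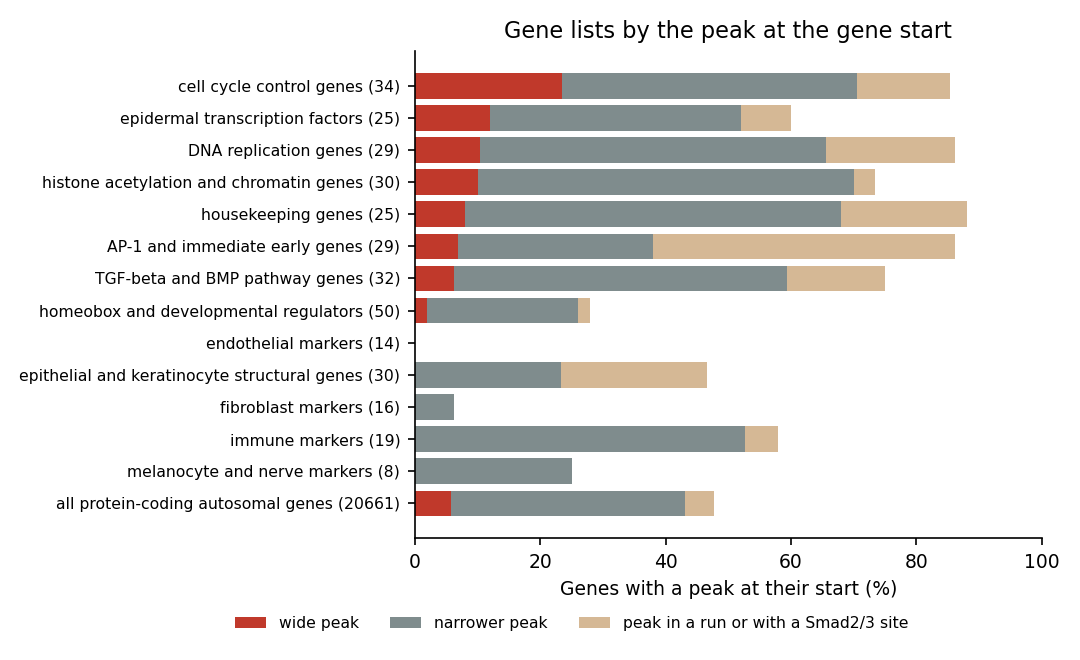
Share of each gene list (%, horizontal axis) with a wide peak (red), a narrower peak (grey) or a peak in a run or with a Smad2/3 site (tan) at the gene start, with the number of genes in brackets. Red reaches 23.5% for cell cycle control genes and 5.82% for all protein-coding autosomal genes, and is absent from the structural, fibroblast, endothelial, immune, and melanocyte and nerve lists.

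Copy number can change how many reads a region yields, so members were read against the authors' calls from input DNA. In SCC1, 34.3% of wide peaks (interval 32.1 to 36.4%) lay in a called gain, against 30.9% (30.5 to 31.3%) of narrower peaks. Called losses held 1.67% of wide peaks, against 2.63% of narrower peaks. In SCC2 the gains held 32.6% (30.5 to 34.8%) of wide peaks, against 31.2% (30.8 to 31.6%) of narrower peaks. Peaks without a call were counted at 2 copies. Across states in SCC1, wide peaks made up 2.43% of compared peaks at 1 copy, 3.64% at 2, 4.15% at 3, 4.35% at 4 and 3.03% at 5 or more copies. In SCC2 these shares were 3.20%, 3.72%, 4.01%, 2.72% and 3.03%. The part of copy number in peak width was not tested further.

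By chromosome, wide peaks made up between 2.88% of compared peaks on chromosome 9 and 4.82% on chromosome 3. The intervals of these 2 chromosomes, 2.26 to 3.62% and 4.16 to 5.54%, did not overlap. They were picked as the lowest and highest, so their intervals can be apart more often than those of a fixed pair. Chromosomes 13, 7 and 8 followed chromosome 3 with 4.73%, 4.59% and 4.57%, and their intervals overlapped its own.

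Wide peaks overlapped no Smad2/3 site by rule, and most were also far from one. The nearest of 6143 sites lay a median of 177 kb away (quartiles 51.6 and 639 kb), against 162 kb (43.6 and 557 kb) for narrower peaks. Within 10 kb of a site were 133 wide peaks, 6.94% (5.84 to 8.17%), against 8.49% (8.24 to 8.74%) of narrower peaks. Before the rule removed them, 10.8% of autosomal peaks of 1000 bp or more held a site, against 5.95% of narrower ones. Isolation was otherwise alike, with 62.1% of wide peaks and 60.1% of narrower peaks having no other peak within 5 kb.

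Genes with a nonsynonymous change in RNA reads were checked for wide peaks. Of 519 such autosomal genes, 58 had a wide peak at their start, 11.2% (interval 8.60 to 14.2%), against 5.82% of all protein-coding genes. A narrower peak was found for 65.3% of them, against 37.3% of all protein-coding genes. A change can be called only in a gene with RNA reads, and callable genes are not listed, so these shares are not mutation rates. Both tumours gave similar shares, with 11.1% of 450 genes in SCC1 and 11.0% of 364 in SCC2. Of the 58 genes, 7 were called in all 4 libraries examined, among them the nucleolar protein Ncl, the ribonucleoprotein Hnrnpa3 and the proteasome activator Psme2. A further 20 were called in 1 library, among them the receptor kinase Met and Pik3r1, the regulatory subunit of PI 3-kinase. These counts of libraries were made for wide-peak genes only, so they have no share of the 519 genes beside them.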

How the data were processed

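The ATAC peaks are a merged list deposited by the authors as positions on mm10, with no score, count or library, and Bowtie is named for these libraries per the submitters' processing notes. Peak and motif callers were not given in the sources used here. RNA values are log2 ratios deposited by the authors, made with TopHat2 2.0.9 and with Cufflinks and Cuffdiff 2.2.0 per the submitters' processing notes. Their depth is unknown, and ratios are capped at 12 in size, which no wide-peak gene reached. Copy number is the authors' whole number per region, called a gain or loss with the authors' deposited p-value. Mutation rows give deposited read counts and percents, which were used here only to list genes.

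Width was end minus start. Overlap needed 1 bp. A gene start was a RefSeq promoter-table start with its strand (25748 autosomal genes) or, for 7322 genes absent from that table, either end of the gene interval, since their strand was not given. The 5′ end of 43.8% of protein-coding genes with a strand lay in a peak, and the 3′ end of 1.57%. Of the table's 1609 genes, 1600 were matched, 1492 by symbol. A gene counted as higher or lower when both tumours had that sign. Named genes were the 20 widest peaks, 5 peaks on each side of the limit, the 10 highest and 10 lowest genes by the smaller of the 2 tumours' ratios (5 and 5 for double negative cells), and list genes with a wide peak. The nearest genes of peaks without a start, and the pairs that share a peak, were chosen after their values were seen. Intervals are exact Clopper-Pearson intervals at 95%. No test was run, because peaks have no samples and each population has 1 RNA library per tumour. The tumours are the samples of a group, and nothing says more of their spread. Members and lists were chosen with earlier results of these data known. Overlap code was tested on simulated data. Software was matplotlib 3.10.9, scipy 1.17.1, pandas 2.3.3, numpy 2.4.6 and Python 3.11.15. Some named items are not reported here.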

Additional observations from a re-analysis of the deposited data

Results flagged for a closer look

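Genes with a wide peak at their start whose ratio had opposite signs in the 2 tumours are given here. No difference between tumours was tested, since each ratio rests on 1 library per population and tumour. For quiescent over proliferative cells, the authors' deposited table gave 3 such genes. Gas1, a growth arrest gene, had 1.70 for SCC1 and -0.20 for SCC2 in the authors' deposited table. Mertk, a receptor kinase that takes up dying cells, had 1.93 for SCC1 and -0.94 for SCC2 in the authors' deposited table. Herc6, an interferon-induced gene, had -0.55 for SCC1 and 1.69 for SCC2 in the authors' deposited table.

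For double negative over proliferative cells there were 4. Herc6 had -0.30 for SCC1 and 1.83 for SCC2 in the authors' deposited table. Slc2a1, the glucose transporter GLUT1, had 1.04 for SCC1 and -0.053 for SCC2 in the authors' deposited table. Itpk1, an inositol phosphate kinase, had 0.44 and -0.067 and Pih1d2 had 0.20 and -0.28, SCC1 before SCC2, in the authors' deposited table.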

How the results depend on the processing

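Of 40 alternative values, 26 were labelled the same as the reported one and 14 were labelled moved. The label does not follow the size of the change. At 800 bp, 27.9% of genes higher in quiescent cells, against 33.6%, was labelled the same. With Smad2/3-site peaks kept, 55.1% of peaks with a start, against 57.5%, was labelled moved. At a limit of 800 bp, 6436 peaks qualified and 49.5% held a start, and at 1500 bp these values were 41 and 61.0%. The share with a start was 55.1% with Smad2/3-site peaks kept, 61.0% with a start within 1 kb, 55.0% for protein-coding genes and 48.6% with only starts that have a strand, an alternative chosen after seeing the data. For narrower peaks the last 3 were 20.9%, 14.9% and 13.6%. The share of higher genes among those with 1 sign in both tumours was 33.6% of 113 genes for quiescent over proliferative cells. It was 66.7% of 6 genes at 1500 bp, 20% of 40 genes with ratios of at least 1 in size, and 32.2% of 90 genes with only starts that have a strand. With 1 tumour left out it ranged over 33.6 to 34.5%. For double negative cells it was 36.6%, and 16.7% with ratios of at least 1 in size, with a range of 36.2 to 37.9% when 1 tumour was left out. With only starts that have a strand, the double negative share was 36.0% of 89 genes. At 1500 bp the median CpG ratio was 0.91 and the median Smad2/3 distance 216 kb. On the gene's strand alone, 51.3% of windows held a GC box. The cause of these changes was not tested, beyond the fewer peaks and genes that stricter limits leave. Each ratio was already taken within 1 tumour, and no fit with or without a block was run. Widths rest on a merged list of unknown depth.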
